A study of Homo sapiens with 6 samples.

Results

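The genes described here are 7 core components of the Hedgehog signalling pathway: the transcription factors GLI1, GLI2 and GLI3, the receptor PTCH1, the signal transducer SMO, the inhibitor SUFU and the ligand-binding protein HHIP. They were taken by gene name, each from its own row, out of 58302 genes in a gene-level count table. RNA was sequenced from MDA-MB-231-DR, which is the triple-negative human breast cancer line MDA-MB-231 in a form resistant to doxorubicin, in 3 control libraries and in 3 libraries from cells given CYT (cyperotundone, a natural sesquiterpene). According to the methods of the study the resistant cells, and so both groups, were kept in medium with a low concentration of doxorubicin. The dose and duration of CYT for these libraries, and what the control cells received in its place, are not given in the sources used here. The methods mention independent experiments in general but do not say whether these libraries came from separate cultures, so p-values measure the spread between these libraries, which may be technical.

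In Hedgehog signalling a secreted ligand binds PTCH1 and so releases SMO, which then acts through the primary cilium. Active SMO frees the GLI proteins from SUFU, and GLI2 and GLI3 act as activators in place of being trimmed into repressors. GLI1, PTCH1 and HHIP are themselves transcribed in response: GLI1 amplifies the output, whereas PTCH1 and HHIP hold it back by binding ligand. In breast cancer the pathway is studied for its part in stem-like cells and in drug resistance.

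The libraries held 14050849 to 17770102 counts in control and 13056270 to 14106017 counts in CYT. At least 10 counts were reached by 14619 to 15083 genes in control and by 15773 to 16075 genes in CYT. Antisense genes took 0.253% to 0.291% of the counts in control and 0.553% to 0.572% in CYT. Correlations of log2 expression between replicates were 0.945 to 0.963 for control and 0.895 to 0.964 for CYT, in which replicate 2 stood apart from the other two. The 5 markers of the mesenchymal triple-negative line summed to 4463 to 4865 CPM (counts scaled to a common library size with TMM factors) in control and 2281 to 2414 CPM in CYT, with VIM and AXL called lower. Of the markers for the other lines of the study, the MCF7 markers summed to 210 to 428 CPM in control and 21.5 to 49.4 CPM in CYT. That fall was carried by the epithelial keratin KRT19 (287 and 26.3 CPM on average, called lower), while GREB1 went from 4.68 to 7.93 CPM without being called. The MCF10A markers summed to 0.705 to 3.13 CPM over all libraries. In control this sum was TP63 alone, which overlapped between groups. KRT5 went from 0, 0 and 0 counts in control to 2, 9 and 11 in CYT, and KRT6A from 0, 0 and 0 to 3, 1 and 6. KRT14 went from 0, 0 and 0 to 1, 0 and 5, and these keratins of the MCF10A list were too low to test. The part of these shifts in the results below was not tested. In bulk RNA, fewer cells expressing a gene and less of its RNA per cell cannot be told apart.

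CYT-treated cells held more GLI1 and PTCH1 RNA and less GLI2 RNA than control cells, while GLI3, SUFU and HHIP did not pass the test and SMO was too low to be tested. In edgeR's quasi-likelihood fit over 15572 genes, with a Benjamini-Hochberg adjusted p below 0.05 as the threshold, 2 of the 6 members tested were called higher, against 15.7% of all genes tested, and 1 was called lower, against 12.9%. The 3 members called compare with 28.6% of all genes called in either direction. The median log2 fold change of the 6 members was 0.31, beside 0.0064 over all genes. By CPM, GLI1 and PTCH1 did not overlap between groups in the higher direction, as did 23.4% of genes tested, and GLI2 did not overlap in the lower direction, as did 22.7%. Taken gene by gene, a two-sided exact permutation test over 3 and 3 libraries gives p = 0.1 at the least, which all 3 of these genes reached. Without CYT replicate 2, the library that stood apart, GLI1, PTCH1 and GLI2 were still called, with log2 fold changes of 3.90, 2.56 and -2.24.

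**Figure D1:**
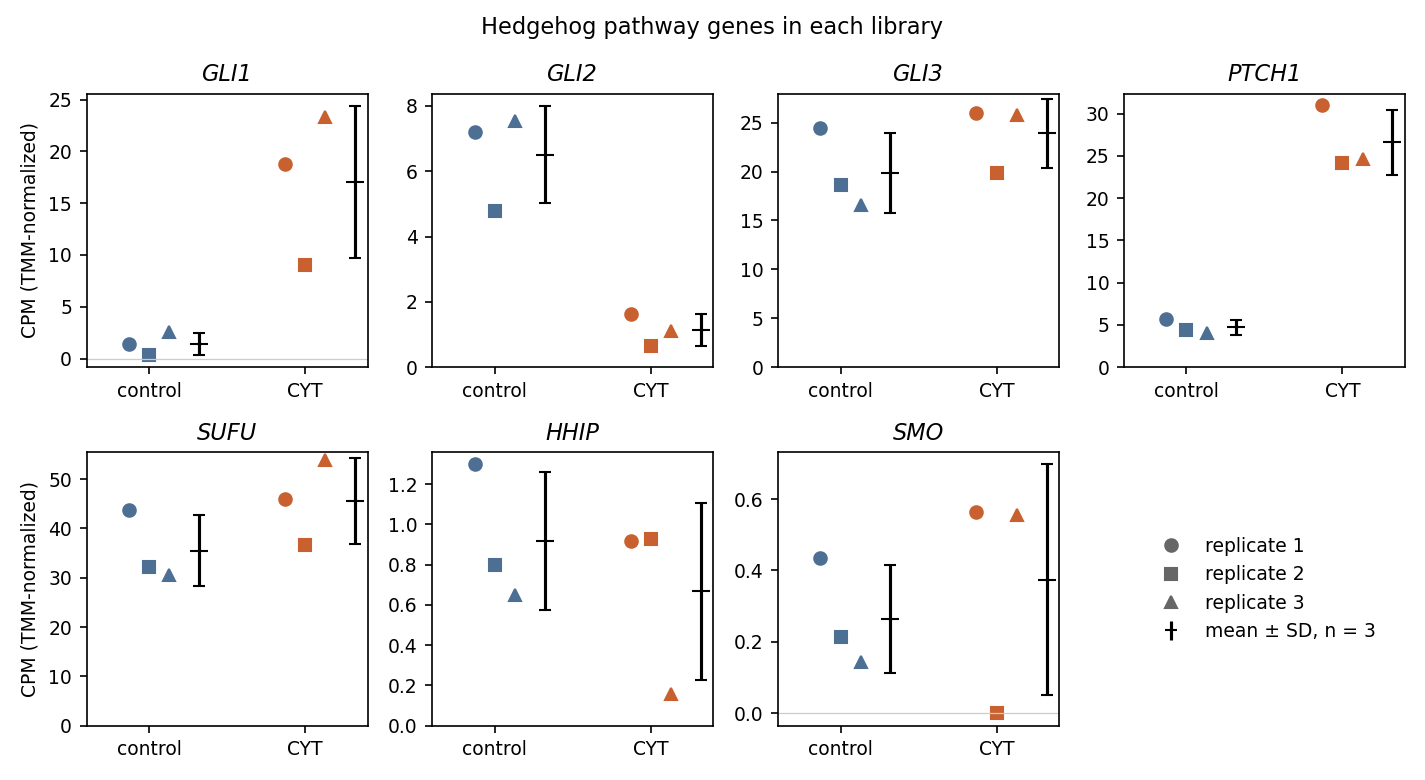
Expression of the 7 Hedgehog members in TMM-normalized CPM (linear axes that differ between panels), with a point for each of 3 control and 3 CYT libraries and the mean ± SD of each group beside them. GLI1 rose from 1.44 to 17.1 CPM and PTCH1 from 4.70 to 26.6 CPM, GLI2 fell from 6.51 to 1.13 CPM, and the points of the other members overlap between groups.

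GLI1 (ENSG00000111087, chr12:57460135-57472262, plus strand, GRCh38) encodes the GLI factor that acts only as an activator, and its RNA is the usual readout of the pathway. It was counted 23, 7 and 35 times in control libraries 1 to 3 and 267, 127 and 294 times in the CYT libraries. Every CYT library stood far above every control library, with the lowest value of each group in replicate 2. Scaled to depth, GLI1 was at 1.44 ± 1.07 CPM in control and 17.1 ± 7.32 CPM in CYT (SD, n = 3 each). The log2 fold change was 3.59 (SE 0.65, 95% interval 2.14 to 5.03, edgeR adjusted p = 0.00366), a 12.0-fold rise with an interval from 4.41 to 32.7, ranked 565 from the top of 15572 genes. In control, GLI1 reached 10 counts in 2 of 3 libraries. Without control replicate 3, the library with the most GLI1 in its group, the log2 fold change was 4.23, and without control replicate 2, the library with the least, it was 3.10. Set against the control library of the same number, the CYT libraries were 13.2-, 24.3- and 9.28-fold higher.

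The study also gives a primer pair for GLI1, shown here because it marks the stretch of the gene that a quantitative PCR would read. Both are printed 5′ to 3′ as designed.
GLI1 forward: aacgctatacagatcctagctcg
GLI1 reverse: gtgccgtttggtcacatgg
Both primers matched 4 of the 8 annotated GLI1 transcripts and those of no other gene. They span 80 bases at chr12:57468028-57468107 (GRCh38), within coding exon 10 of 12 of the transcript GLI1-201, and cross no exon junction. The RNA-seq counts, in contrast, sum reads over all exons of the gene. On the opposite strand ARHGAP9 shares 8 exonic bases with GLI1, and its counts of 22, 29 and 16 in control and 26, 22 and 22 in CYT overlapped between groups.

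PTCH1 (ENSG00000185920, chr9:95442980-95517057, minus strand) encodes the receptor that keeps SMO inactive until ligand binds, and it is a direct target of the GLI factors. Its counts were 91, 83 and 56 in control and 440, 340 and 310 in CYT, with no overlap and little spread inside each group. Means were 4.70 ± 0.843 and 26.6 ± 3.83 CPM (SD, n = 3 each). PTCH1 rose 5.66-fold (log2 fold change 2.50, SE 0.33, 95% interval 1.77 to 3.23, edgeR adjusted p = 0.00107). Pairs of the same replicate number gave 5.50-, 5.48- and 6.12-fold, a narrower range than for GLI1. AL161729.1, an antisense gene that shares 711 exonic bases with PTCH1, was counted 11, 17 and 10 times in control and 54, 4 and 25 times in CYT. Whether reads were counted by strand is not given in the sources used here, so reads of the pair cannot be told apart where they overlap. The part of antisense reads in the PTCH1 counts was not tested.

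A promoter window of PTCH1 is printed because it was the single window of a member that held the GLI consensus GACCACCCA, read on both strands (its reverse complement is TGGGTGGTC). The windows are from RefSeq (GRCh38.p14) and run from 250 bases before to 50 after each start site, with 10 windows for GLI2, PTCH1, SUFU, HHIP and SMO. GLI1 and GLI3 had no entry. The printed stretch is the 250 bases before a RefSeq start of PTCH1 at 95509266 (chr9:95509267-95509516), written on the minus strand with the motif in capitals. That start lies 605 bases from the nearest PTCH1 start in GENCODE 29, whose coordinates match the count table.
PTCH1 promoter: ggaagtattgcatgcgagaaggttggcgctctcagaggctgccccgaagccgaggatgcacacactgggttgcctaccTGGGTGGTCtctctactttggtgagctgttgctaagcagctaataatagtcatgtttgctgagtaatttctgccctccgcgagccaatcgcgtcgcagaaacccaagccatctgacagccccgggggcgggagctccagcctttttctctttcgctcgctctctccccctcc
The motif lay 164 bases before this RefSeq start, and 83 of 35116 windows in the table (0.236%) held it on either strand. The match describes these letters only, since no binding of a GLI factor was measured.

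GLI2 (ENSG00000074047, chr2:120735623-120992653, plus strand) encodes the GLI factor that carries most of the activator function when SMO is on. It moved in the opposite direction to GLI1: control libraries held 116, 90 and 105 counts and CYT libraries 23, 9 and 14. The groups did not overlap, and GLI2 was again lowest in CYT replicate 2. The mean fell from 6.51 ± 1.50 to 1.13 ± 0.491 CPM (SD, n = 3 each), with a log2 fold change of -2.52 (SE 0.47, 95% interval -3.57 to -1.48, edgeR adjusted p = 0.00412). That is a 5.74-fold lower level with an interval from 2.78 to 11.8, ranked 290 from the lowest fold change of 15572. GLI2 was lower in every pair of the same number, by 4.43-, 7.48- and 6.79-fold.

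GLI3 (ENSG00000106571, chr7:41960950-42237870, minus strand), the member that mainly supplies the repressor form, was counted 394, 350 and 230 times in control and 369, 279 and 325 times in CYT. Its groups overlapped, at 19.9 ± 4.09 and 23.9 ± 3.50 CPM, and the log2 fold change of 0.27 (SE 0.31, edgeR adjusted p = 0.547) had a 95% interval from -0.42 to 0.95. Changes of the size seen for GLI1 or GLI2 lie outside that interval. The ratio of GLI2 to GLI3 counts, with 0.5 added to each count, does not depend on how libraries are scaled. This ratio was 0.295, 0.258 and 0.458 in control and 0.0636, 0.0340 and 0.0445 in CYT. It was 7.13-fold lower in CYT with no overlap, at the smallest p that 3 libraries against 3 allow (exact permutation test, two-sided, p = 0.1). The log2 change of the ratio was -2.83, and -2.88 without the added 0.5.

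Levels can be compared between genes only per length, and for this CPM was divided by the kilobases of merged exons of each gene. On that scale GLI1 made up 9.56%, 3.63% and 19.1% of the summed GLI1, GLI2 and GLI3 level in the control libraries and 63.3%, 53.1% and 68.9% in the CYT libraries. GLI2 gave 26.7% to 32.8% in control and 1.88% to 3.12% in CYT, and GLI3 gave 48.1% to 69.7% and 29.2% to 44.8%. GLI3 was thus the most abundant GLI RNA in each control library and GLI1 in each CYT library. With the longest transcript as the length this held too, but in CYT replicate 2 only narrowly (GLI1 49.9%, GLI3 48.2%). The summed level was 3.55, 2.44 and 3.14 CPM per kb in control and 7.08, 4.05 and 8.07 CPM per kb in CYT.

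**Figure D2:**
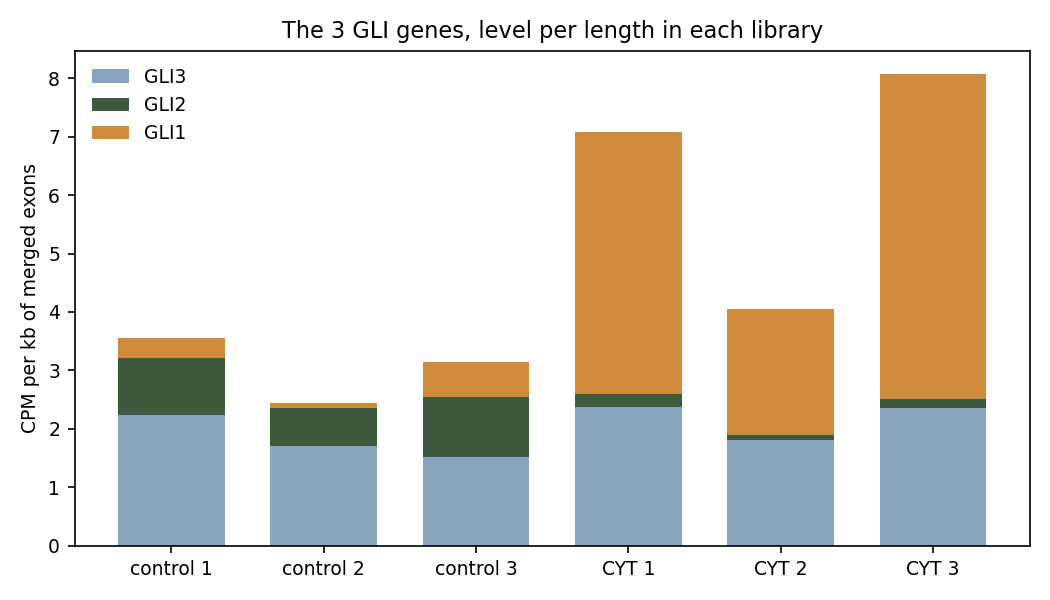
Level of GLI1, GLI2 and GLI3 in each of the 6 libraries, in CPM per kilobase of merged exons, stacked from 0. The control libraries sum to between 2.44 and 3.55 and have GLI3 as the largest share, and the CYT libraries sum to between 4.05 and 8.07 with GLI1 as the largest share.

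Among the inhibitors, SUFU (ENSG00000107882, chr10:102503987-102633535, plus strand), which binds GLI proteins and holds them in the cytoplasm, was counted 706, 603 and 426 times in control and 653, 515 and 679 times in CYT. The groups overlapped at 35.5 ± 7.20 and 45.6 ± 8.66 CPM, and the log2 fold change was 0.36 (SE 0.30, 95% interval -0.32 to 1.04, edgeR adjusted p = 0.405). PTCH1 was also set against this inhibitor within the same library, again with 0.5 added to each count. The ratio went from 0.130, 0.138 and 0.132 in control to 0.674, 0.661 and 0.457 in CYT, a 4.41-fold rise with no overlap (exact permutation test, two-sided, p = 0.1). The log2 change of the ratio was 2.14, and 2.15 without the added 0.5.

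HHIP (ENSG00000164161, chr4:144646021-144745271, plus strand), which sequesters Hedgehog ligands at the cell surface, was near the lower limit of the data. Its counts were 21, 15 and 9 in control and 13, 13 and 2 in CYT, which overlapped. Although it is a target of the pathway like GLI1 and PTCH1, HHIP had a log2 fold change of -0.44 (SE 0.66, edgeR adjusted p = 0.650), which became 0.032 without CYT replicate 3. The 95% interval, from -1.91 to 1.03, leaves out rises as large as those of GLI1 and PTCH1. The overlapping HHIP-AS1 held 4, 4 and 3 counts in control and 0, 11 and 4 in CYT.

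SMO (ENSG00000128602, chr7:129188872-129213545, plus strand), the transducer that Hedgehog inhibitors in the clinic bind, was hardly detected in either group. It was counted 7, 4 and 2 times in control and 8, 0 and 7 times in CYT, which left it under the minimum needed for the fit. The count of 0 in CYT replicate 2 allows a level of up to 0.214 CPM, from a limit of 3 counts that covers counting error only. The group means were 0.264 ± 0.152 and 0.373 ± 0.323 CPM (SD, n = 3 each), and no difference was detectable at this depth (exact permutation test, two-sided, p = 1).

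Ordered by level per kilobase, the control cells held SUFU at 5.17 ± 1.05, GLI3 at 1.81 ± 0.373 and GLI2 at 0.887 ± 0.204 CPM per kb (SD, n = 3), each clear of the next. GLI1 at 0.342 ± 0.255 and PTCH1 at 0.283 ± 0.0508 overlapped, and so did HHIP at 0.0759 and SMO at 0.0611. The lowest control library of GLI1 (0.0887) also lay below the highest of HHIP (0.108) and of SMO (0.101). In CYT the order was SUFU at 6.64 ± 1.26, GLI1 at 4.06 ± 1.74, GLI3 at 2.18 ± 0.320 and PTCH1 at 1.60 ± 0.231, each overlapping its neighbour. GLI2 at 0.153, SMO at 0.0866 and HHIP at 0.0552 CPM per kb followed well below and also overlapped in turn. GLI1 thus went from a level beside PTCH1 to the range between SUFU and GLI3. With the longest transcript as the length, PTCH1 and GLI1 changed places in control and SUFU no longer overlapped GLI1 in CYT.

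For each member that was called, the genes with the nearest profile were found by the Euclidean distance of centred log2 CPM over the 6 libraries, among 11416 or 11417 genes of at least 5 CPM on average. Closest to GLI1 were BICDL1, HSD11B2 and AC241585.2, at distances of 0.877, 0.895 and 0.911 log2 units. GLI2 was nearest to H1F0 (0.206), AURKB (0.213) and MAPKAPK3 (0.264). PTCH1 was nearest to NEU1 (0.342), AC022007.1 (0.386) and URB1-AS1 (0.406). These distances are descriptions from so few libraries, with no test.

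The rest of the pathway held calls in both directions. Of 64 other genes on 5 lists (ligands, other receptors, regulators of SMO and GLI, the primary cilium, and target genes), 49 were tested, and 3 were higher and 8 lower after CYT. That is 22.4% called, beside 28.6% of all genes tested, and the median log2 fold change was -0.037, with list medians from -0.50 for the cilium to 0.77 for the ligands. The number lower was 4 without control replicate 3 or without CYT replicate 3, and 5 without CYT replicate 1.

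**Figure D3:**
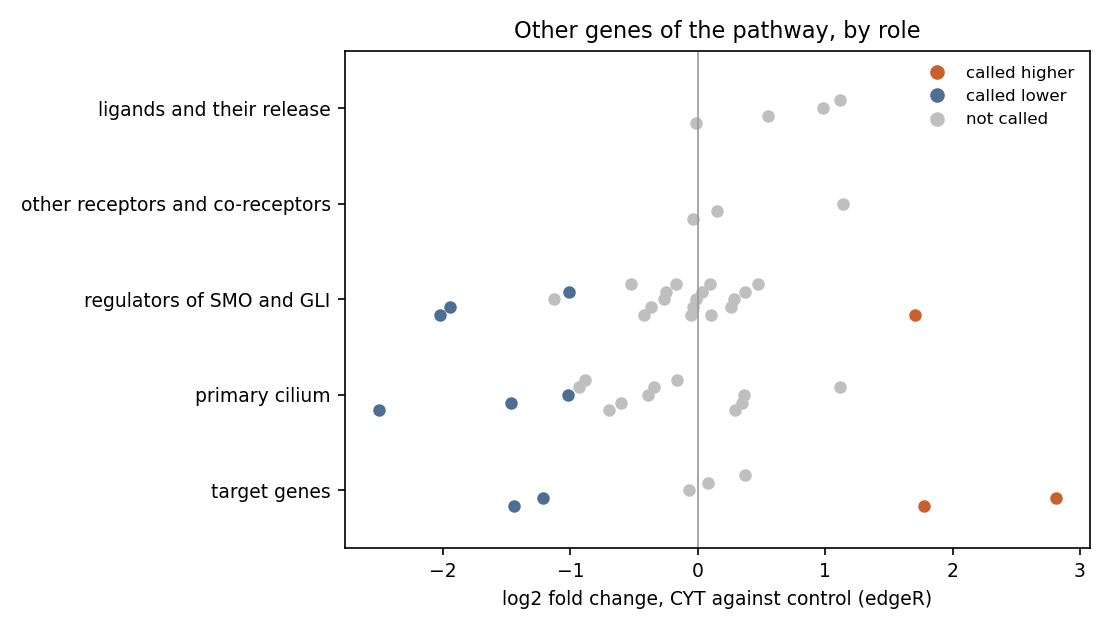
Log2 fold change (CYT over control) of the 49 other Hedgehog pathway genes tested, with a point per gene grouped by list and called genes marked by colour. The median is 0.77 for the ligand list, 0.15 for the receptors, -0.056 for the regulators, -0.50 for the cilium and 0.082 for the targets, and 11 genes are called, from SNAI1 at 2.81 down to IFT172 at -2.50.

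Upstream of PTCH1, none of the ligand and receptor genes tested was called, which were 4 of 8 on the ligand list and 3 of 5 on the receptor list. SHH, the ligand most studied in cancer, was counted 18, 7 and 16 times in control and 26, 23 and 28 times in CYT. These groups did not overlap by CPM, but the log2 fold change of 1.12 (SE 0.54) had an edgeR adjusted p of 0.147. DHH, another ligand, had 0, 0 and 2 counts in control and 8, 6 and 11 in CYT and was too low to test, as were IHH, SCUBE1, SCUBE2, GAS1 and LRP2. Of these LRP2, an endocytic receptor, held 6, 0 and 2 counts in control and 15, 18 and 7 in CYT, which did not overlap. The co-receptors CDON (log2 fold change -0.034) and BOC (0.15) were near 0.

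Among the 21 regulators tested, GPR161 was called higher and EVC, KIF7 and SPOP lower, which is 19.0% called beside 28.6% of all genes tested. GPR161, a ciliary receptor that keeps the pathway off through protein kinase A, went from 328, 178 and 203 counts to 744, 593 and 626, a log2 fold change of 1.70 (SE 0.35, edgeR adjusted p = 0.00634). EVC, which relays the signal from SMO inside the cilium, had 244, 175 and 133 counts in control and 39, 24 and 49 in CYT (log2 fold change -2.03, SE 0.42, edgeR adjusted p = 0.0068). All CYT libraries were below all control libraries for EVC, while its partner EVC2 was listed at 0 in every library. KIF7, a kinesin that regulates GLI proteins at the ciliary tip, was counted 710, 534 and 412 times in control and 152, 80 and 127 times in CYT, a log2 fold change of -1.94 (SE 0.37, edgeR adjusted p = 0.00443). SPOP, an adaptor for the degradation of GLI2 and GLI3, had 394, 485 and 437 counts in control and 171, 236 and 145 in CYT (log2 fold change -1.02, edgeR adjusted p = 0.0352). Of the kinases that prime GLI proteins for trimming, PRKACA had a log2 fold change of 0.47 (95% interval -0.47 to 1.41), CSNK1A1 of 0.37 and GSK3B of -0.17, none of them called. Without CYT replicate 2, PRKACA was called higher (log2 fold change 0.82, edgeR adjusted p = 0.0419) and CUL3, a partner of SPOP, lower (-0.80, adjusted p = 0.0466). No other fit called them, and with all libraries their edgeR adjusted p was 0.430 and 0.248.

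Of the 14 ciliary genes, all tested, 3 were lower (21.4%, beside 12.9% of all genes tested) and none was called higher. IFT172, a part of the transport train that builds the cilium, had the lowest fold change of the 49 other pathway genes tested, from 316, 213 and 198 counts to 38, 35 and 35 (log2 fold change -2.50, SE 0.36, edgeR adjusted p = 0.00154). RPGRIP1L, from the gate at the ciliary base, had 82, 133 and 95 counts in control and 23, 40 and 30 in CYT (log2 fold change -1.47, edgeR adjusted p = 0.0208). TULP3, which brings GPR161 into the cilium, had a log2 fold change of -1.02 (edgeR adjusted p = 0.0465). The transport genes were not uniform: with the replicate number as a block, IFT80 was also called higher (log2 fold change 1.06, edgeR adjusted p = 0.0117) and IFT52 lower (-0.88, adjusted p = 0.0198). Without CYT replicate 2, IFT88 (-1.41, adjusted p = 0.0242) and IFT52 (-1.03, adjusted p = 0.0238) were called lower, IFT88 in this fit alone.

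The 15 genes listed as GLI targets in other settings were divided as well, with 7 tested, 2 higher and 2 lower (57.1% called beside 28.6% of all genes tested, from a small list). SNAI1, a repressor of epithelial genes, was counted 298, 162 and 194 times in control and 1778, 563 and 1543 times in CYT, a log2 fold change of 2.81 (SE 0.49, edgeR adjusted p = 0.0033). ABCG2, a drug efflux pump, went from 33, 53 and 36 to 91, 194 and 67 counts (log2 fold change 1.77, edgeR adjusted p = 0.017). In CYT replicate 2, where GLI1 and SNAI1 were lowest of the CYT group, ABCG2 was highest. CCND1, the cyclin of G1, fell from 7520, 9367 and 5310 to 2241, 2668 and 1846 counts (log2 fold change -1.45, SE 0.27, edgeR adjusted p = 0.00459). FOXF2, a forkhead factor of mesenchyme, went from 218, 276 and 279 to 115, 88 and 80 counts (log2 fold change -1.22, edgeR adjusted p = 0.0213). BCL2 (log2 fold change 0.082) and FOXM1 (-0.073) were close to 0. Of the 11 calls in the wider pathway, those of EVC, KIF7, GPR161, IFT172, SNAI1 and CCND1 held in all 13 alternative analyses, whereas SPOP was called in 4 of 13 and TULP3 in 5 of 13. The call of ABCG2 was lost without control replicate 1 or 3 (edgeR adjusted p = 0.0669 and 0.0605) and that of FOXF2 without control replicate 3 or CYT replicate 3 (0.0883 and 0.0812). RPGRIP1L was called in 8 of 12 and lost its call without control replicate 2 or 3 or CYT replicate 1 or 3 (0.0532 to 0.0773).

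**Figure D4:**
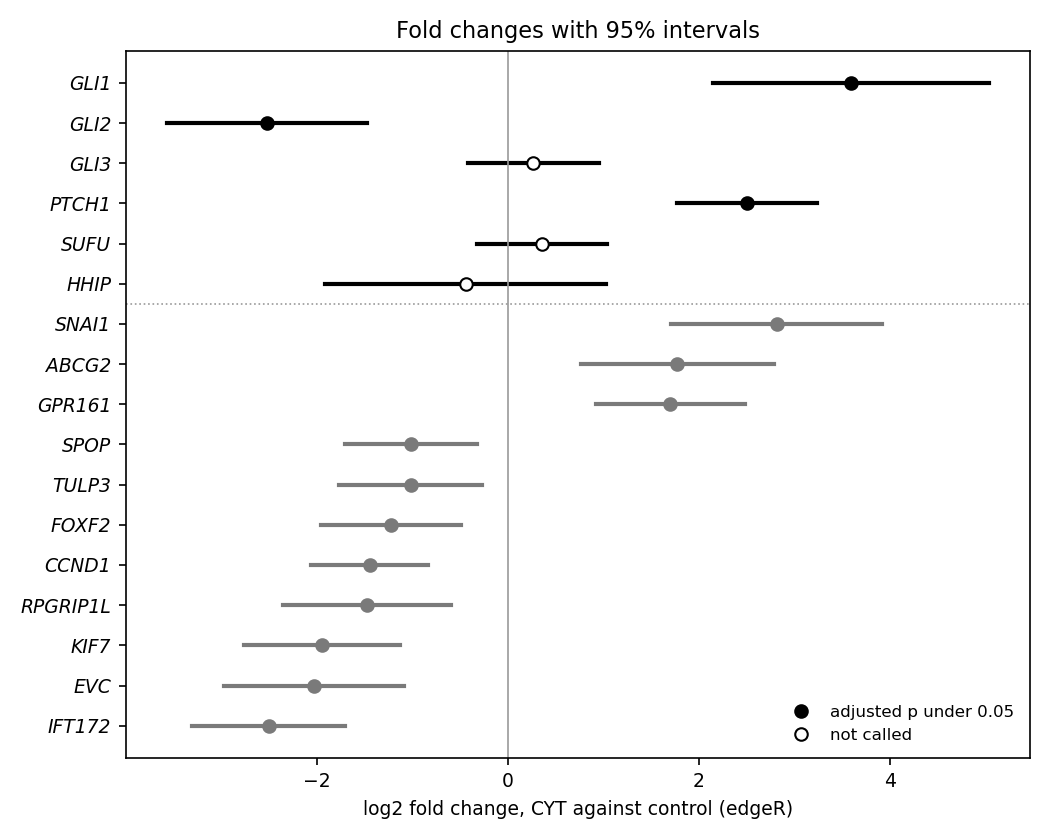
Log2 fold change (CYT against control) with 95% intervals from edgeR for the 6 members tested, in black above the dotted line, and for the 11 other pathway genes called, in grey below it. Filled points have an adjusted p under 0.05. The intervals of GLI1 (2.14 to 5.03) and PTCH1 (1.77 to 3.23) lie above 0 and that of GLI2 (-3.57 to -1.48) below it, while those of GLI3, SUFU and HHIP cross 0.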

How the data were processed

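RNA-seq of 3 control and 3 CYT-treated MDA-MB-231-DR libraries was used. The authors deposited a table with raw read counts and FPKM per gene, made on the human genome; the submitters' notes name FastQC 0.12.1, and the methods name Hisat2 for alignment and Stringtie for FPKM. The tool behind the raw counts and its strand setting are not given in the sources used here. Gene coordinates matched GENCODE 29 (GRCh38). Counts were fitted with edgeR 4.0.16 (R 4.3.3; TMM, filterByExpr at 10 counts, quasi-likelihood test, all 6 libraries, group only), adjusted over 15572 genes and called at 0.05. The fit was tested on simulated data. The alternatives were DESeq2 1.42.0, upper-quartile scaling, other filters, limma 3.58.1 on log2(FPKM + 1) or log2(FPKM + 0.1), a replicate block and leaving out each library. FPKM entered only within genes: its implied length equalled, within 1 base, the sum of a gene's distinct exons, overlaps counted repeatedly, in 92.1% of 10158 well counted genes. Levels between genes used CPM per kilobase of merged exons, a choice made after this was seen. Same-numbered libraries deviated together (correlations 0.146, 0.396 and 0.110, all above 0.1), so the replicate numbers were taken as pairs in the block, although control 1 with CYT 3 (0.251) and control 3 with CYT 1 (0.175) correlated more than their own pairs. No 2 libraries of the same group agreed within sampling noise. The members and gene lists were chosen with earlier results of these data known. Named were all members, the called pathway genes, overlapping genes of at least 10 counts and the 3 genes nearest to each called member; other pathway genes are given as illustrations, chosen after their values were seen. Columns of the authors' own comparison (fold changes and p-values) were not used.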

Additional observations from a re-analysis of the deposited data

How the results depend on the processing

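GLI1 and PTCH1 were called higher in all 13 alternatives, with log2 fold changes of 1.28 to 4.23 and 0.67 to 2.65, the lowest from limma on log2(FPKM + 1), a scale that understates changes of low genes. GLI2 was called lower in all 12 alternatives that tested it (-2.89 to -0.34). A filter at 5 CPM on average left GLI2 untested, so that 0 members were called lower there, and 5 other pathway genes were. GLI3, SUFU and HHIP were called in none. HHIP reversed, from -0.74 in the lowest leave-one-out fit to 0.032 without CYT replicate 3. The replicate block changed no member call (GLI1 3.75, GLI2 -2.57, PTCH1 2.51) and gave 4 pathway genes higher and 9 lower. With no filter 5 pathway genes were higher. Leaving out libraries gave 4 to 11 lower: 4 without control replicate 3 or CYT replicate 3 and 5 without CYT replicate 1. Under upper-quartile scaling the all-gene median log2 fold change was 0.16 in place of 0.0064, and 63.9% of calls were higher in place of 55.0%. With 3 libraries a group and under 10 counts for SMO, modest changes of SMO and HHIP lie below what this depth resolves.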

Other observations

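Among target genes below the filter, FOXL1 was counted 0, 0 and 0 times in control and 7, 15 and 18 times in CYT, and FOXC2 0, 0 and 0 times against 7, 3 and 7 times. Both encode forkhead factors of mesenchymal tissue and were named after their values were seen. They account for the additional higher calls without a filter (edgeR adjusted p = 0.00178 and 0.0287). Every CYT library also held more genes of at least 10 counts than any control library. The part of that wider gain in the counts of FOXL1 and FOXC2 was not tested.

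The GLI motif of the PTCH1 window was also looked up across all RefSeq windows. Of 36 tested genes with GACCACCCA in a window, 5 were called higher (13.9%) and 5 lower (13.9%), and their median log2 fold change was -0.14. Over the 10519 tested genes with a window these shares were 12.9% and 14.1%. The 5 higher genes were PTCH1, HEPACAM2, PARP11, NRL and BAIAP2, and the 5 lower genes EEFSEC, HPCAL1, TFB1M, PLCH2 and TMEM216, all named after their values were seen. The shares are close to those of all genes with a window, and with 36 genes they are a description only.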
